A study of Homo sapiens with 4 samples.

Results

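Translation initiation and elongation factor genes are the genes whose proteins start protein synthesis on an mRNA and carry it along the coding sequence. They were taken by name alone from the table of gene-level TT-seq values: gene names made of EIF and a digit from 1 to 6, or EEF and 1 or 2, followed by letters and digits only, together with *ETF1*, *GSPT1*, *PABPC1*, *PABPC4*, *DENR* and *MCTS1*. Of 10147 genes in the table, 48 had such a name, and all 48 are protein coding. *PABPC1* and *PABPC4* were not among them and were not analysed here. The names also bring in genes with other tasks, namely kinases and methyltransferases that act on the factors, the exon junction protein gene *EIF4A3* and *EIF1AD*, whose protein shares a domain with eIF1A.

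Translation begins when eIF2 brings the initiator tRNA to the small ribosomal subunit, which eIF3 holds open to mRNA while eIF4F loads it at the cap. eIF1 guards the choice of start codon, eIF2B recharges eIF2 with GTP, and eIF5B joins the large subunit, after which eEF1A delivers each aminoacyl-tRNA and eEF2 moves the ribosome on. Many of these genes are among the most strongly transcribed in growing cells. Cells under stress turn initiation down by phosphorylation of eIF2 or by loss of phosphorylation from the eIF4E-binding proteins.

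The study asked how RNA synthesis changes when IWS1, a protein that travels with RNA polymerase II, is removed. The cells were K562, a human erythroleukemia line, in which the *IWS1* gene itself had been edited so that its protein carries an N-terminal degradation tag (dTAG), and whether the libraries came from 1 clone is not given in the sources used here. Both groups carried this tag. There were 2 control libraries, from cells given only the solvent DMSO for 1 h, and 2 dIWS1 libraries, from cells given 500 nM dTAG7 for 1 h, and all were labelled with 500 µM 4-thiouridine for 5 min. TT-seq sequences the RNA made in this short pulse, so that introns count and values stand for synthesis rather than for the amount of mRNA in the cell.

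The table gives a mean normalized count per gene over 4 library columns, and the whole reads behind each mean were recovered from its digits. A single split into whole reads was found for 10083 of the 10136 genes with a mean above 0 (99.5%), and all 48 translation factor genes were among them. The splits held 1 control column, entered with the weight of 2 equal columns, and 2 different dIWS1 columns. The spread of the control is thus unknown. It entered the test as 1 sample that was assumed to vary as the dIWS1 columns do. The table does not name its columns. The control column was told apart from the dIWS1 columns by the direction of the authors' comparison, dIWS1 over control, and every direction here rests on that reading. The columns held 27259334 reads in genes for the control, 18989638 for dIWS1 column 1 and 19213206 for dIWS1 column 2, and reads are given in this order throughout. Of 14 genes fixed as markers of K562 cells 13 were listed, all but *BCR*, and of 9 fixed for other blood cells 3 were listed (*LYZ*, *PTPRC* and *SPI1*).

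The synthesis of most translation factor genes fell. At spike-in scaling, 35 of 48 genes fell and 0 rose in limma's voom test at a Benjamini-Hochberg adjusted p under 0.05, while 13 were not called. Over all 9974 genes tested, 64.6% were called lower and 0.12% higher, so the share of these genes that fell (72.9%) was close to the background and is not read as particular to them. No gene of the family rose at an unadjusted p under 0.05 either, nor with limma's trend on log2 values. Shares of all genes that rose were not counted for these settings. The median log2 ratio of the 48 genes was −0.38 (lowest −0.71, highest 0.06), beside −0.42 over all genes tested. In dIWS1 column 1 alone the median was −0.43 and in column 2 alone −0.34, while all genes had −0.47 and −0.37. In a culture sequenced in bulk, fewer cells and less RNA per cell cannot be told apart.

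Because nearly every gene moved the same way, each translation factor gene was also set against the median gene. Relative to it, 28 of the 48 genes lay above and 20 below. In limma's voom test 0 of 48 were called lower and 1 higher at an adjusted p under 0.05, where the background was 4.86% lower and 2.92% higher. The called gene was *EIF5A2*. At an unadjusted p under 0.05 there were 4 above (*EIF5A2*, *EIF2AK3*, *EIF5B* and *EIF3F*) and 1 below (*EEF1AKMT1*). The share of all genes at that threshold was not counted, so these counts are not read as a lean of the family. When each column was scaled to its own median gene, which also takes out the offset between the dIWS1 columns, 2 genes were called lower (*EEF1D* and *EIF2B3*) and 8 higher (*EIF5A2*, *EIF2AK3*, *EIF5B*, *EIF3F*, *EIF3J*, *EIF2A*, *EIF2AK2* and *EIF3H*), against a background of 11.2% and 11.1%. Under that scaling 26 of the 48 log2 ratios changed sign, so falls are given at spike-in scaling throughout.

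Other settings moved the counts of translation factor genes and the background together. With total reads in genes as the scaling, 4 of the 48 were called lower and 10 higher, beside 14.4% and 17.9% of all genes tested, and relative to the median gene 4 lower and 9 higher, beside 15.2% and 16.5%. Own-median scaling gave 2 lower and 8 higher relative to the median gene, beside 11% and 11.2%. With the control column entered 2 times, 2 were lower and 4 higher relative to the median gene, beside 15.5% and 11%. At an adjusted p under 0.01, 20 genes were called lower at spike-in scaling, beside 48.3%, and 0 higher relative to the median gene, beside 1%. At an adjusted p under 0.1, 2 were higher relative to the median gene, beside 4.58%. Limma's trend on log2 values called 25 lower at spike-in scaling, beside 54.4%, and relative to the median gene 0 lower and 1 higher, beside 2.72% and 1.12%.

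**Figure D1:**
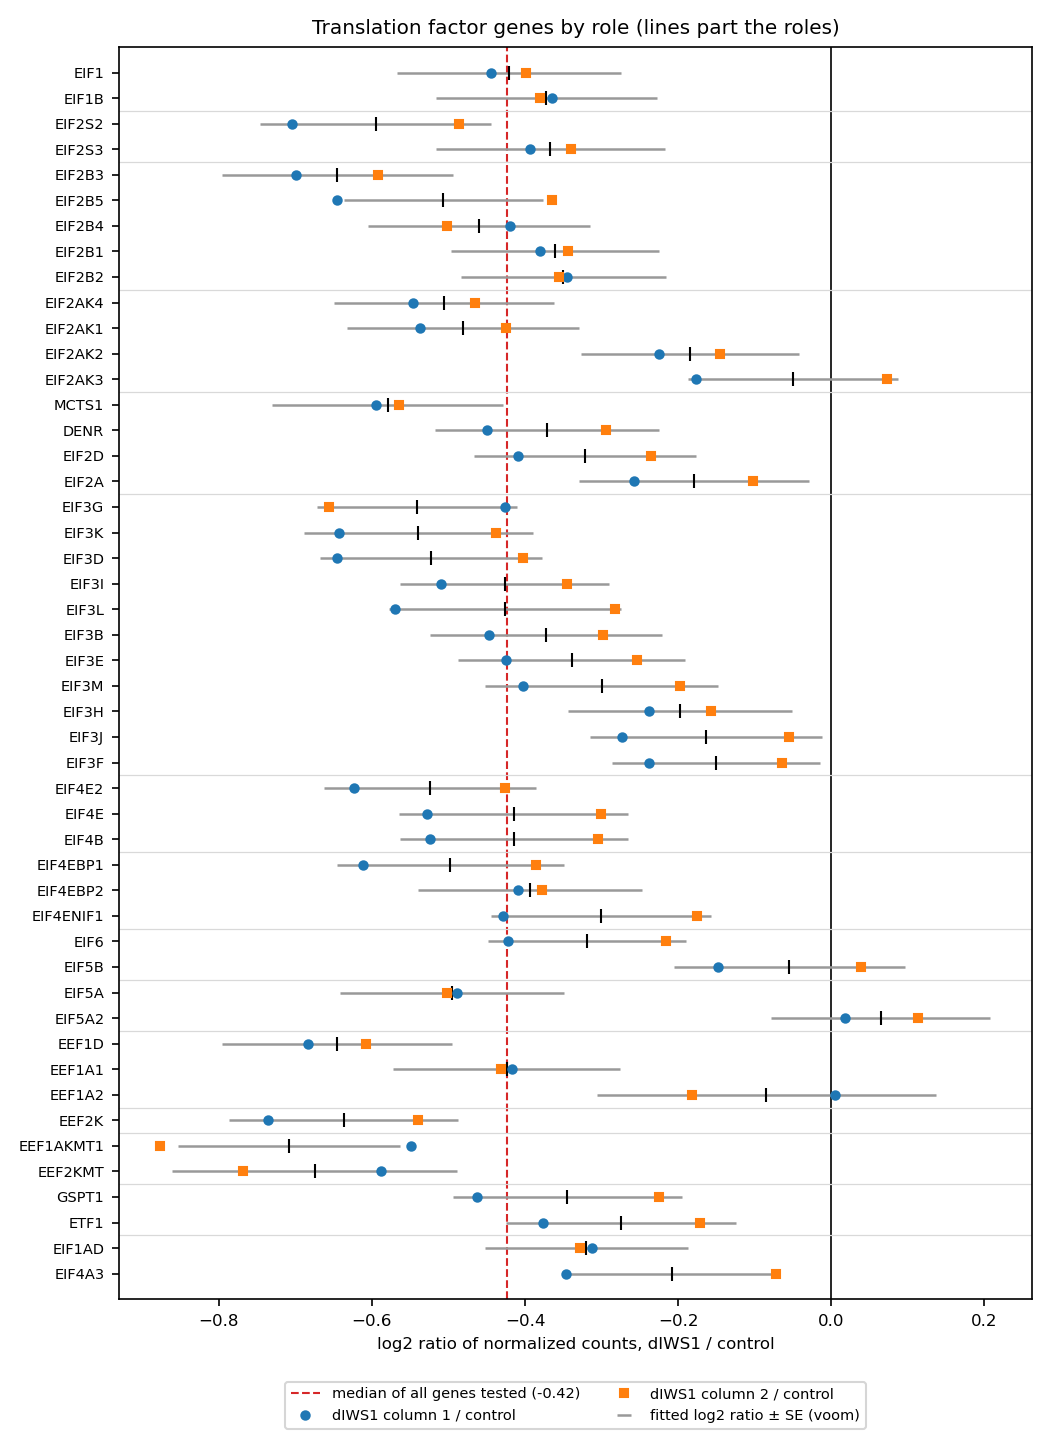
Log2 ratio of normalized counts (dIWS1 over control, x axis) for each of the 48 genes (y axis), ordered by role with thin lines between roles. Circles and squares are dIWS1 columns 1 and 2, ticks with bars are the fitted value ± SE, and the dashed line is the median of all genes tested (−0.42). At spike-in scaling all fitted values lie left of 0 but that of *EIF5A2* at 0.06, while 28 of 48 lie right of the dashed line. That line falls close to 0 when each column is scaled to its own median gene.

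Many translation factor mRNAs are known to open with a C followed by a run of C and T, the terminal oligopyrimidine tract through which growth signals control their translation. RefSeq start windows of 300 bases (GRCh38.p14) were found for 37 of the 48 genes. At the annotated start, a C followed by at least 4 letters that are each C or T was read in 9 of these 37 (24.3%), and in 7.01% of the 7464 listed genes with a window. It was thus absent at the annotated start of 28 of the 37, and these shares were not tested. The tracts are shown because they are a known feature of translation factor genes that the choice by name did not use. Below, 8 bases before the start and 20 from it on are given 5′ to 3′, with the tract in capitals.
EIF3D, chr22:36529147-36529174, minus strand: catgtttcCTCTTTTCCTggtttctcaa
EIF3F, chr11:7987329-7987356, plus strand: tccgcctcCTTCTTTCTCgacaagatgg
EIF2A, chr3:150546779-150546806, plus strand: agcggtttCTCTTTCCgggacaacatgg
EIF3K, chr19:38619180-38619207, plus strand: tccaccacCTCTTCCTgttcccgtcctt
EEF1A1, chr6:73521013-73521040, minus strand: tgaacgttCTTTTTCgcaacgggtttgc
EIF2S3, chrX:24054948-24054975, plus strand: tttccttcCTCTTTTggcaacatggcgg
EIF4B, chr12:53006448-53006475, plus strand: atccgggtCTTTTgcgttctctttccct
*EIF2D* and *EIF3M* also met the rule. For comparison, the 3 genes with the highest log2 ratios had no tract at the annotated start, which for *EIF2AK3* lies inside the span given for the gene.
EIF5A2, chr3:170908618-170908645, minus strand: cgtctcttggaactgccgcggccgccac
EIF5B, chr2:99337381-99337408, plus strand: gagaactcacaccatatgtgtcctgttc
EIF2AK3, chr2:88627445-88627472, minus strand: tccgagataggctgtcactcaggtggca
Genes with and without a tract overlapped in their ratios. The 9 genes with a tract had a median log2 ratio of −0.37 (from −0.54 in *EIF3K* to −0.15 in *EIF3F*) and 6 of them fell, while the 28 without it had a median of −0.37 and 20 of them fell. Over all listed genes the medians were −0.43 with a tract (518 genes tested) and −0.42 without (6901). Of these, 70.7% with a tract and 65.3% without were called lower, so the counts of falls are not read as particular to translation factor genes. An annotated start can lie some bases from the start used in K562 cells, so a tract that was not read here says only that these letters do not follow that position.

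In the same windows, searched on both strands, the ETS motif CCGGAAGT stood in 9 of the 37 genes (24.3%) and in 11.4% of listed genes. The letters CCAAT stood in 46.0% of the 37 and in 43.5% of listed genes, and the GC box GGGCGG in 75.7% and 77.9%. The TATA box letters TATAAA stood in 1 of the 37 (2.70%), beside 7.32% of listed genes. These shares describe letters in the windows and were not tested.

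The eIF2 subunit genes carry the initiator tRNA step. *EIF2S2*, for the beta subunit, had 7422 control reads and 4481 and 4827 dIWS1 reads. *EIF2S3*, for the gamma subunit, whose start window is shown above, had 8900, 6665 and 6403 reads. Both dIWS1 columns were below the control for both genes. The log2 ratio was −0.60 for *EIF2S2* (SE 0.15, limma voom adjusted p = 0.000336) and −0.37 for *EIF2S3* (SE 0.15, adjusted p = 0.0252), of which the second lay above the median gene by 0.06. The alpha subunit gene was not analysed here.

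All 5 genes of eIF2B, the exchange factor that reloads eIF2 with GTP, were listed and fell, beside 64.6% of all genes tested. So few genes are not read as a result about the complex, and 2 of the 5 lay above the median gene. *EIF2B3*, for the gamma subunit, spans 136 kb on chromosome 1 (44850522 to 44986595) and is the longest of the 48 genes. It had 7391 control reads and 4479 and 4466 dIWS1 reads. Both columns were well under the control, with log2 ratios of −0.70 and −0.59, and the fitted value was −0.65 (SE 0.15, limma voom adjusted p = 0.000104). Relative to the median gene *EIF2B3* was −0.22 (adjusted p = 0.396) and with each column scaled to its own median gene −0.22 (adjusted p = 0.0307), so the call relative to other genes depends on how the dIWS1 columns are brought together. *EIF2B5*, which encodes the catalytic epsilon subunit, had a log2 ratio of −0.51. *EIF2B4* had −0.46, *EIF2B1* −0.36 and *EIF2B2* −0.35, so the subunits of the complex ran from −0.65 to −0.35.

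The 4 kinases that phosphorylate eIF2 alpha under stress ran from −0.51 to −0.05 in log2 ratio. At spike-in scaling 2 of the 4 fell, beside 64.6% of all genes tested. *EIF2AK4* (GCN2, which senses uncharged tRNA; chromosome 15, 39934115 to 40035591) had 1914 control reads and 1289 and 1262 dIWS1 reads. *EIF2AK1* (HRI, which senses lack of heme and is known for its role in red cell precursors; chromosome 7, 6022247 to 6059175) had 3849, 2610 and 2610 reads. Both fell, with log2 ratios of −0.51 (SE 0.14, limma voom adjusted p = 0.00132) and −0.48 (SE 0.15, adjusted p = 0.00375). *EIF2AK2* (PKR, which senses double-stranded RNA; chromosome 2, 37099210 to 37156980) had 1635, 1376 and 1347 reads. *EIF2AK3* (PERK, which senses unfolded protein in the endoplasmic reticulum; chromosome 2, 88556741 to 88628145) had 1199, 1044 and 1149 reads.

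*EIF2AK2* and *EIF2AK3* were not called. Their log2 ratios were −0.18 (SE 0.14, adjusted p = 0.232) and −0.05 (SE 0.14, adjusted p = 0.743). After scaling, *EIF2AK3* had a log2 ratio of −0.18 in column 1 and 0.07 in column 2, so its dIWS1 columns lay on either side of the control. Relative to the median gene it stood at 0.37 (adjusted p = 0.0706), and with each column scaled to its own median gene at 0.37 (adjusted p = 0.0199). The difference of *EIF2AK4* from *EIF2AK3* was −0.37 in column 1 and −0.54 in column 2, and that of *EIF2AK1* from *EIF2AK3* was −0.36 and −0.50. These differences between genes were not tested. The levels differed as well, since *EIF2AK1* had 103 normalized counts per kb of gene span in the control column and *EIF2AK3* 16.6.

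**Figure D2:**
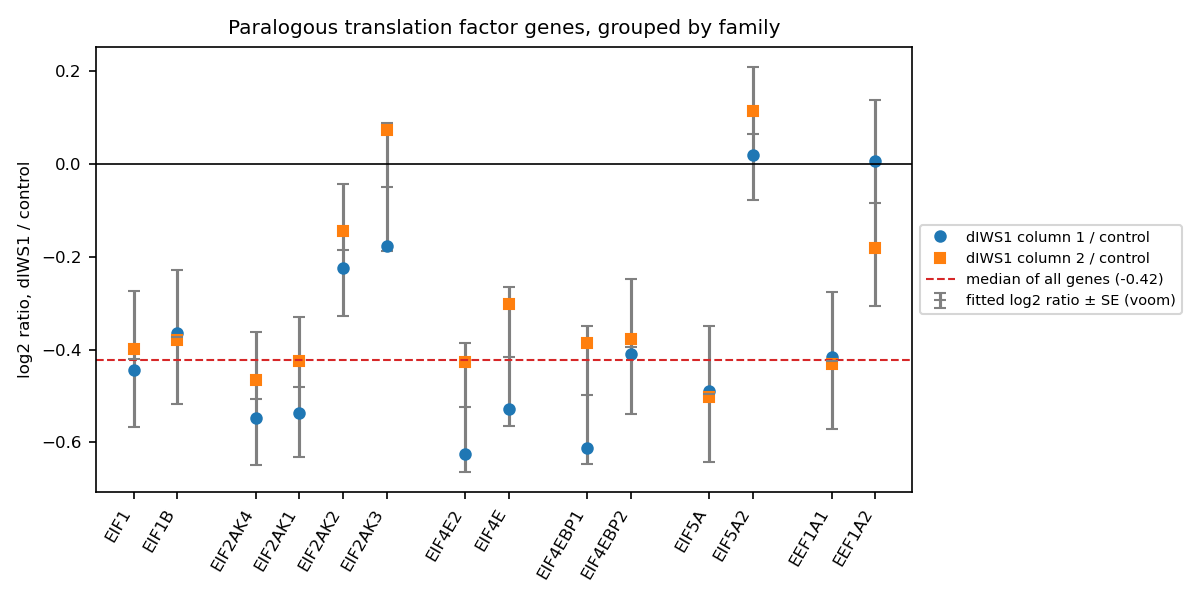
Log2 ratio (dIWS1 over control, y axis) of genes in families with more than 1 listed gene, grouped by family along the x axis. Circles and squares are dIWS1 columns 1 and 2, bars are the fitted value ± SE, the solid line is 0 and the dashed line the median of all genes tested (−0.42). At spike-in scaling *EIF5A2*, *EIF2AK3* and *EEF1A2* (−0.08, with 81 control reads) lie near 0 and above the dashed line, apart from *EIF5A*, *EIF2AK4*, *EIF2AK1* and *EEF1A1*. *EIF1* and *EIF1B* lie close together, as do *EIF2AK4* and *EIF2AK1*. Differences between genes were not tested.

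Genes of the other routes of initiator tRNA delivery and of reinitiation ran from −0.58 to −0.18. *MCTS1*, whose protein works as a dimer with that of *DENR* after short upstream reading frames, had 3650 control reads and 2378 and 2248 dIWS1 reads. *DENR* had 2233, 1608 and 1659 reads. Both partners fell, with log2 ratios of −0.58 (SE 0.15, limma voom adjusted p = 0.00048) and −0.37 (SE 0.15, adjusted p = 0.0202), and relative to the median gene they stood on either side of it, at −0.16 and 0.05. *EIF2D*, related to both, had −0.32 and fell. *EIF2A*, whose protein can bring the initiator tRNA without GTP, had −0.18 (adjusted p = 0.271) and was not called.

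eIF3 is the largest initiation factor, and 11 of 14 genes fixed for it were listed. Of these 7 fell (63.6%, beside 64.6% of all genes tested) and 4 were not called. The median log2 ratio was −0.37, and 6 of 11 lay above the median gene. Of the subunits that form the core with its MPN and PCI domains, *EIF3K* had −0.54, *EIF3L* −0.43, *EIF3E* −0.34, *EIF3M* −0.30 (adjusted p = 0.0701, not called) and *EIF3H* −0.20 (adjusted p = 0.215, not called). *EIF3H* had the most reads of the 48 genes, with 19631 in the control and 16381 and 16038 in the dIWS1 columns. *EIF3G*, *EIF3I* and *EIF3B*, whose proteins form a module near the mRNA entry, had −0.54, −0.43 and −0.37 and all fell. *EIF3D*, whose protein can bind the cap of some mRNAs, had −0.52 and fell.

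The highest eIF3 values were those of *EIF3F* and *EIF3J*, which were not called. *EIF3F*, for an MPN domain subunit, lies on chromosome 11 (7987337 to 8001852) and had 1119 control reads and 933 and 975 dIWS1 reads. Its log2 ratio was −0.24 in column 1 and −0.06 in column 2, and the fitted value −0.15 (SE 0.14, limma voom adjusted p = 0.309). Relative to the median gene it stood at 0.27 (adjusted p = 0.216). *EIF3J*, for a loosely bound subunit, had a log2 ratio of −0.16 (adjusted p = 0.322). RefSeq names 3 pseudogenes after each of these genes, and reads that match a copy equally well were not counted by the authors, who kept unique alignments.

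Of the genes for cap binding and eIF4F, 3 of 11 were listed and all 3 fell, beside 64.6% of all genes tested. *EIF4E*, for the cap-binding protein, spans chromosome 4 from 98879276 to 98929133 and had 9873 control reads and 6733 and 7299 dIWS1 reads. *EIF4E2*, for a paralog known to repress rather than promote initiation (chromosome 2, 232550689 to 232583644), had 1454, 928 and 985 reads. The dIWS1 columns were below the control for both, with fitted log2 ratios of −0.41 (SE 0.15, limma voom adjusted p = 0.0113) for *EIF4E* and −0.52 (SE 0.14, adjusted p = 0.000595) for *EIF4E2*. *EIF4E* thus lay next to the median gene, and its difference from *EIF4E2* was not tested. In the control column *EIF4E* had 4.49 times the normalized counts per kb of *EIF4E2*. *EIF4B*, for the protein that helps the helicase of eIF4F, had a log2 ratio of −0.41 and fell. The eIF4A helicase and eIF4G scaffold genes were not analysed here.

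The eIF4E-binding proteins hold eIF4E away from eIF4G until mTORC1 phosphorylates them. *EIF4EBP1* (chromosome 8, 38030534 to 38060365) had 2655 control reads and 1709 and 1851 dIWS1 reads. *EIF4EBP2* (chromosome 10, 70404145 to 70428618) had 2208, 1636 and 1547 reads. Both fell. The log2 ratios were −0.50 (SE 0.15, limma voom adjusted p = 0.00218) and −0.39 (SE 0.15, adjusted p = 0.0138), and their difference was −0.20 in column 1 and −0.01 in column 2. *EIF4ENIF1*, which encodes the 4E-T protein that carries eIF4E into processing bodies, had −0.30 (adjusted p = 0.0545) and was not called.

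*EIF1* and *EIF1B* encode near-identical proteins that keep the scanning ribosome from starting at the wrong codon. *EIF1* (chromosome 17, 41688885 to 41692668) had 2301 control reads and 1663 and 1590 dIWS1 reads. *EIF1B* (chromosome 3, 40309707 to 40312424), the shortest of the 48 genes at 2.72 kb, had 296, 226 and 207 reads. Both fell, with log2 ratios of −0.42 (SE 0.15, limma voom adjusted p = 0.00864) and −0.37 (SE 0.14, adjusted p = 0.0184), and differed by −0.08 in column 1 and −0.02 in column 2, so both lay at or above the median gene. RefSeq names 7 pseudogenes after *EIF1*.

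The genes for subunit joining differed. *EIF6*, whose protein keeps the large subunit apart until it is ready, had a log2 ratio of −0.32 (SE 0.13, limma voom adjusted p = 0.0243) and fell, though it stood 0.10 above the median gene. *EIF5B*, for the GTPase that brings the subunits together, lies on chromosome 2 (99337389 to 99401326) and had 6260 control reads and 5558 and 5857 dIWS1 reads. After scaling, its log2 ratio was −0.15 in column 1 and 0.04 in column 2, so the dIWS1 columns lay on either side of the control. The fitted value was −0.05 (SE 0.15, adjusted p = 0.744). It stood 0.37 above the median gene (adjusted p = 0.115). With each column scaled to its own median gene it was 0.37 with an adjusted p = 0.0095.

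eIF5A, the hypusine-bearing factor, helps ribosomes through stretches such as runs of proline. *EIF5A* (chromosome 17, 7306999 to 7312463) had 2335 control reads and 1637 and 1502 dIWS1 reads. Its paralog *EIF5A2* (chromosome 3, 170888418 to 170908637) had 272, 271 and 268 reads, which after scaling are 269, 273 and 291 normalized counts. *EIF5A* fell, with a log2 ratio of −0.50 (SE 0.15, limma voom adjusted p = 0.00206), and stood 0.07 below the median gene. *EIF5A2* alone among the 48 genes had a fitted value above 0, with log2 ratios of 0.02 in column 1 and 0.11 in column 2 and a fit of 0.06 (SE 0.14, adjusted p = 0.681).

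Relative to the median gene *EIF5A2* was higher by 0.49 (adjusted p = 0.0156), the call named above. That p-value uses the standard error of the spike-in fit. At an adjusted p under 0.01 it was not called. The log2 ratio of *EIF5A* less that of *EIF5A2* was −0.51 in column 1 and −0.61 in column 2, a difference between genes that was not tested. In the control column *EIF5A* had 31.8 times the normalized counts per kb of *EIF5A2* (423 beside 13.3), and in the dIWS1 columns together 300.3 beside 13.95 per kb. RefSeq names 3 pseudogenes after *EIF5A* and 1 after *EIF5A2*.

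Among elongation factor genes, *EEF1A1* encodes the abundant carrier of aminoacyl-tRNA, and its start window is shown above. It had 15521 control reads and 11439 and 10481 dIWS1 reads. It fell with a log2 ratio of −0.42 (SE 0.15, limma voom adjusted p = 0.0088), which is that of the median gene. Over its short span of 5.28 kb it had 2910 normalized counts per kb in the control column, the highest density of the 48 genes. RefSeq names 50 pseudogenes after it, so its reads are those that could be placed uniquely. *EEF1A2*, its paralog of muscle and nerve, had 81, 80 and 65 reads, a log2 ratio of −0.08 (SE 0.22, adjusted p = 0.731), and was the only gene of the 48 with a mean under 100 normalized counts. At that depth a difference between the paralogs was not read.

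*EEF1D*, for the delta subunit of the exchange factor that reloads eEF1A, lies on chromosome 8 (143579728 to 143597415). It had 3502 control reads and 2144 and 2093 dIWS1 reads, so both dIWS1 columns were well under the control. The log2 ratio was −0.65 (SE 0.15, limma voom adjusted p = 9.88e-05). Set against the median gene it was −0.22 (adjusted p = 0.395). With each column scaled to its own median gene it was −0.22 with an adjusted p = 0.0388. RefSeq names 8 pseudogenes after *EEF1D*. *EEF2K* encodes the kinase that halts elongation by phosphorylating eEF2. It had 3295, 1947 and 2063 reads and a log2 ratio of −0.64 (SE 0.15, adjusted p = 0.000115), and fell.

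The lowest log2 ratios of the 48 genes belonged to 2 lysine methyltransferases of elongation factors. Of 6 gene names fixed for this role only these 2 were listed. Other such enzymes are listed under other names, so these 2 do not stand for all of them. The 11 tested genes in the list of modifying enzymes below ran from −0.86 to −0.08, with 6 below the median gene and 5 above. Among them *METTL13*, *METTL10* and *METTL21B*, further methyltransferase genes of elongation factors listed under other names, had −0.47, −0.34 and −0.14, the last not called. Relative to the median gene they stood at −0.05, 0.09 and 0.29. *EEF1AKMT1* (chromosome 13, 20728731 to 20773961), which acts on eEF1A, had 323 control reads and 217 and 160 dIWS1 reads. *EEF2KMT* (chromosome 16, 5084284 to 5097795), which acts on eEF2, had 150, 98 and 80 reads. Both fell, and both were lower in column 2 than in column 1, unlike the 38 of 48 genes that were lower in column 1. The fitted log2 ratios were −0.71 (SE 0.15, limma voom adjusted p = 1.01e-05), or 61.2% of the control, and −0.68 (SE 0.19, adjusted p = 0.000932), or 62.6%. Relative to the median gene they were −0.29 (adjusted p = 0.23) and −0.25 (adjusted p = 0.443) and were not called. With 7.07 and 10.996 normalized counts per kb in the control column they were among the least dense of the 48 genes.

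Of the release factor genes, *GSPT1* (eRF3a, the GTPase) had a log2 ratio of −0.34 and fell, while *ETF1* (eRF1, which reads the stop codon) had −0.27 (limma voom adjusted p = 0.0927) and was not called. *ETF1* had 8631 control reads and 6538 and 6977 dIWS1 reads. Of the genes that only share the name, *EIF1AD* had −0.32 and fell, and *EIF4A3*, of the exon junction complex, had −0.21 (adjusted p = 0.159) and was not called.

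**Figure D3:**
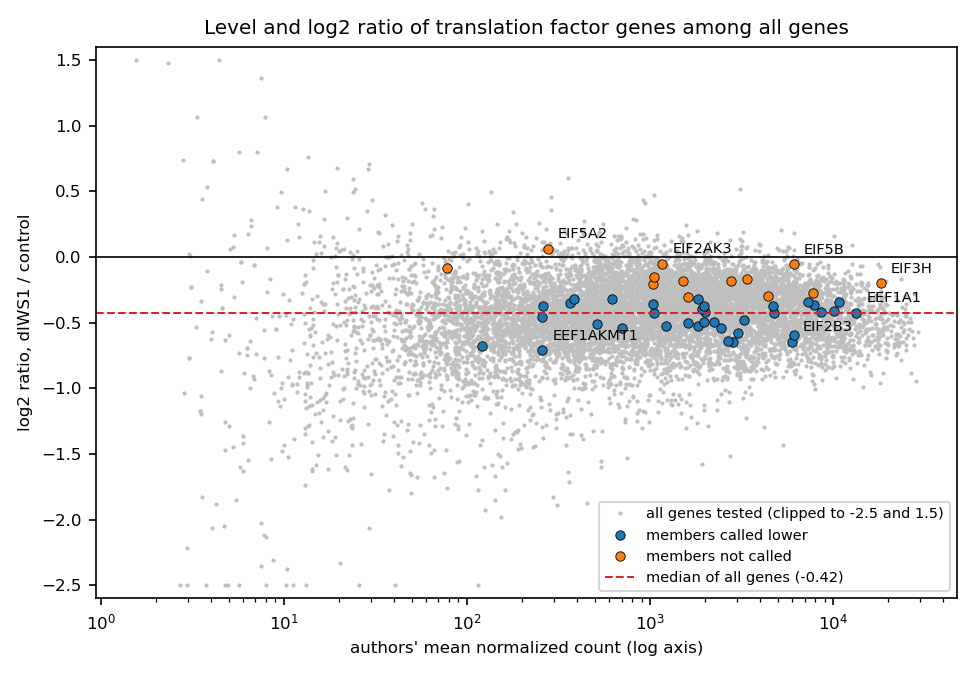
Log2 ratio (dIWS1 over control, y axis) against the authors' mean normalized count (log x axis) for all genes tested (grey, with outlying values drawn at the upper and lower limits) and for the 48 translation factor genes, blue where called lower and orange where not called. The 48 genes lie within the cloud, from −0.71 to 0.06 at spike-in scaling, and around the dashed median of −0.42 that own-median scaling brings close to 0.

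The dIWS1 columns shared 1 control column, so their ratios are given side by side. Column 1 lay below column 2 for 38 of the 48 genes, by a median of −0.16, beside −0.11 over all genes tested. The SD of that difference over the 48 genes was 0.14. Fitted standard errors were 0.13 to 0.22 (median 0.15). They also hold the offset between the dIWS1 columns, which genes share, so they do not measure the error of a difference between genes. Of the 48 fitted values 23 were between −0.5 and −0.3, and differences between neighbours in the order of log2 ratios were not tested.

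Short and long genes overlapped in their log2 ratios. Spans ran from 2.72 to 136 kb with a median of 23.9 kb. The 21 genes under 20 kb had a median log2 ratio of −0.42, the 14 from 20 to 40 kb −0.38 and the 13 of at least 40 kb −0.34, beside −0.45, −0.35 and −0.44 over all genes of these classes. Spearman's rho of the log2 ratio was 0.11 with the span and −0.11 with the control density over 48 genes. Densities in the control column went from 7.07 (*EEF1AKMT1*) to 2910 (*EEF1A1*) normalized counts per kb, with a median of 100.1. Short genes such as *EEF1A1*, *EIF1* (602) and *EIF5A* (423) led that order, and *EIF2S3* (370), *EIF4B* (324) and *EIF2S2* (307) followed. A span counts all transcribed bases between the RefSeq ends and is no measure of the transcript used in K562 cells.

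**Figure D4:**
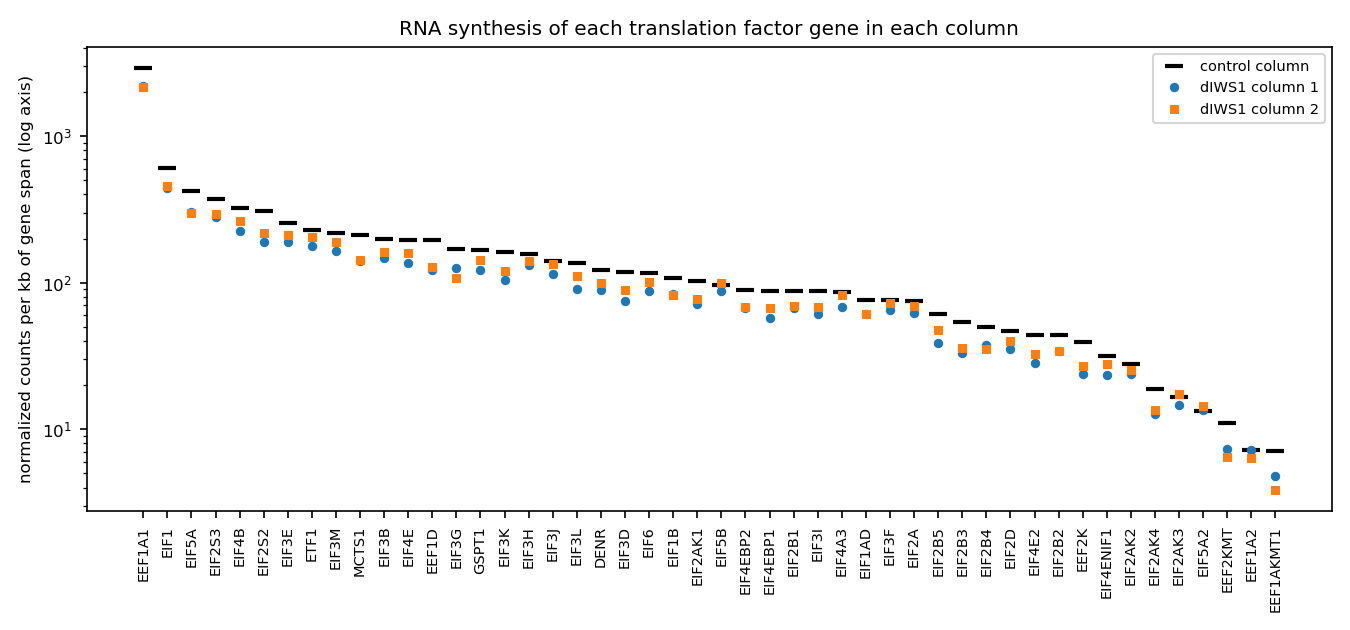
Normalized counts per kb of gene span (log y axis) in the control column (black bars) and in dIWS1 columns 1 and 2 (circles and squares) for each of the 48 genes, ordered by the control. Densities fall from 2910 per kb in *EEF1A1* to 7.07 in *EEF1AKMT1*, and at spike-in scaling both dIWS1 markers lie under the control for all but *EIF5A2*, *EIF2AK3*, *EIF5B* and *EEF1A2*; the differences between columns are small beside those between genes.

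Other genes of translation were taken from 6 lists. Of 81 genes in lists of the eIF2 stress response, mTORC1 and MNK signalling, cap and poly(A) partners, termination and rescue, enzymes that modify elongation factors, and mitochondrial translation factors, 64 were listed. At spike-in scaling 42 fell, 0 rose and 22 were not called in limma's voom test, with a median log2 ratio of −0.46, and 29 of the 64 lay above the median gene. Relative to the median gene 4 were called lower and 0 higher, beside 4.86% and 2.92% of all genes tested, so these counts are not read as particular to the lists. *IMPACT*, whose protein restrains the kinase GCN2, had 398 control reads and 173 and 163 dIWS1 reads. Its log2 ratio was −1.16 (adjusted p = 9.85e-14), or −0.74 relative to the median gene (adjusted p = 2.9e-05).

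The other calls were *LARP4B*, for a partner of poly(A)-binding protein, at −0.99 (−0.56 relative to the median gene, limma voom adjusted p = 0.00466), *RPTOR*, for the raptor subunit of mTORC1, at −0.88 (−0.46, adjusted p = 0.0274), and *DPH5*, for an enzyme that makes diphthamide on eEF2, at −0.86 (−0.43, adjusted p = 0.0305). All had both dIWS1 columns below the control. By list, the mTORC1 and MNK genes had a median log2 ratio of −0.58 with 9 of 12 called lower, the cap and poly(A) partners −0.50 with 7 of 12, the termination and rescue genes −0.48 with 7 of 11, the eIF2 stress response genes −0.45 with 6 of 8, the modifying enzymes −0.43 with 7 of 11, and the mitochondrial factors −0.38 with 6 of 10. These counts stand beside 64.6% over all genes.

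*IWS1* itself had 3684 control reads and 2334 and 2427 dIWS1 reads, a log2 ratio of −0.55 (SE 0.15, limma voom adjusted p = 0.000894) and −0.13 relative to the median gene. dTAG7 acts on the protein, so these reads do not measure its depletion.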

How the data were processed

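The authors mapped TT-seq read pairs with STAR 2.6.0 to GRCh38 extended by spike-in sequences, retained unique alignments only, and counted read pairs per RefSeq gene by strand. Overlapping genes and genes of low density were left out. The authors took size factors from the spike-in counts and ran DESeq2. The deposited table gives 1 signal per gene, which is the mean of the normalized counts (reads over size factor) of its library columns. It also holds a log2 fold change with its error, a test score and p-values of the authors' comparison. Of these only the deposited log2 column was read, to learn which recovered columns are the numerator, and none of its values is printed.

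Whole reads per column were recovered from the digits of each mean. For 53 genes, all with a mean of at least 26984, several splits were possible, and these were left out. The recovered size factors were 1.01 for the control and 0.993 and 0.919 for the dIWS1 columns. Genes with more than 3 reads in at least 1 column (9974) were tested with limma 3.58.1 in R 4.3.3, using voom with spike-in size factors as library sizes and calls at a Benjamini-Hochberg adjusted p under 0.05. The control was counted once. An exact permutation of 1 against 2 columns cannot give a two-sided p under 0.333. Values relative to the median gene are the fitted ratios less their median over all genes. They keep the standard error of the fitted ratio, which also holds the offset between the dIWS1 columns. Their p-values thus do not rest on the error of a difference between genes. Medians and ratios of single columns used a pseudocount of 0.5 normalized counts. The labels give replicate numbers, and the study describes 2 biological replicates. Per its reporting summary separately opened stocks were grown apart over several passages. P-values rest on the spread between the dIWS1 columns, which limma pools largely over all genes. The SE was 0.148 for *EEF1A1*, whose columns differed by 0.015, and 0.145 for *EEF1AKMT1*, whose columns differed by 0.327. A p-value of 1 gene thus does not measure how well its own dIWS1 columns agree. Scripts ran in Python 3.11.15 and were tested on simulated data.

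Spans, start windows and pseudogene names came from RefSeq (GRCh38.p14). Full values were given for genes called relative to the median gene, for the 4 lowest and 4 highest log2 ratios among genes with a mean of at least 100, and for paralog families with at least 2 such genes. *EEF1A1*, *EEF1A2*, *EIF2S2*, *EIF2S3*, *EIF3H*, *EEF2K*, *ETF1*, *DENR* and *MCTS1* were given reads after their values were seen. The genes, the lists and the rules were chosen with earlier results of these data known. The alternatives were other scalings, filters, thresholds, a limma trend on log2 values, the control entered 2 times, other pseudocounts and single dIWS1 columns.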

Additional observations from a re-analysis of the deposited data

How the results depend on the processing

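The count of translation factor genes that fell depends on the scaling. Spike-in scaling carries a shift of −0.42 over all genes (median log2 ratio), and without it most of these genes lie near 0. Spike-in scaling called 35 of the 48 lower and 0 higher. With total reads in genes as the scaling 4 were called lower and 10 higher, beside 14.4% and 17.9% of all genes tested. With each column scaled to its own median gene 2 were called lower and 8 higher, beside 11.2% and 11.1%. The median log2 ratio turned from −0.38 to 0.051 and 0.039. By their construction these scalings remove the common shift. The log2 ratios that turned positive when each column was scaled to its own median gene (26 of 48) were *EIF4E* 0.0067, *EIF4B* 0.0077, *EIF4EBP2* 0.028, *EIF1B* 0.049, *EIF3B* 0.049, *DENR* 0.050, *EIF2S3* 0.055, *EIF2B1* 0.060, *EIF2B2* 0.071, *GSPT1* 0.077, *EIF3E* 0.082, *EIF2D* 0.099, *EIF1AD* 0.10, *EIF6* 0.10, *EIF4ENIF1* 0.12, *EIF3M* 0.12, *ETF1* 0.15, *EIF4A3* 0.21, *EIF3H* 0.22, *EIF2AK2* 0.24, *EIF2A* 0.24, *EIF3J* 0.26, *EIF3F* 0.27, *EEF1A2* 0.33, *EIF5B* 0.37 and *EIF2AK3* 0.37. With total reads in genes there were 30, namely *EIF3I* 0.0066, *EIF3L* 0.0078, *EEF1A1* 0.0097, *EIF1* 0.012, *EIF4E* 0.019, *EIF4B* 0.020, *EIF4EBP2* 0.040, *EIF1B* 0.061, *EIF3B* 0.062, *DENR* 0.062, *EIF2S3* 0.067, *EIF2B1* 0.072, *EIF2B2* 0.083, *GSPT1* 0.090, *EIF3E* 0.095, *EIF2D* 0.11, *EIF1AD* 0.11, *EIF6* 0.11, *EIF4ENIF1* 0.13, *EIF3M* 0.13, *ETF1* 0.16, *EIF4A3* 0.23, *EIF3H* 0.24, *EIF2AK2* 0.25, *EIF2A* 0.25, *EIF3J* 0.27, *EIF3F* 0.28, *EEF1A2* 0.35, *EIF5B* 0.38 and *EIF2AK3* 0.38.

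The threshold and the use of the control moved counts too, and the shares over all genes tested, given in the results above, moved with them. At an adjusted p under 0.01, 20 genes were called lower, and relative to the median gene 0 were called higher. At an adjusted p under 0.1, 2 were called higher relative to the median gene. With the control column entered 2 times, as it is in the deposited mean, 2 were called lower and 4 higher relative to the median gene. For calls relative to the median gene, total reads in genes gave 4 lower and 9 higher, and own-median scaling 2 lower and 8 higher, alternatives that were chosen after seeing the data. Without dIWS1 column 1 the median log2 ratio was −0.34 and without column 2 −0.43. Without column 1, 13 of the 48 log2 ratios moved by over 1.5 times. Of these *EIF3L* (−0.43 to −0.28) and *GSPT1* (−0.34 to −0.23) had been called lower, and *EIF4ENIF1* (−0.30 to −0.18), *EIF3M* (−0.30 to −0.20), *ETF1* (−0.27 to −0.17), *EIF4A3* (−0.21 to −0.07), *EIF2A* (−0.18 to −0.10), *EIF3J* (−0.16 to −0.05), *EIF3F* (−0.15 to −0.06), *EEF1A2* (−0.08 to −0.18), *EIF5B* (−0.05 to 0.04), *EIF2AK3* (−0.05 to 0.07) and *EIF5A2* (0.06 to 0.11) had not. Without column 2, 7 moved by over 1.5 times, and none of them had been called at spike-in scaling: *EIF4A3* to −0.35, *EIF3J* to −0.27, *EIF3F* to −0.24, *EIF2AK3* to −0.18, *EIF5B* to −0.15, *EEF1A2* to 0.01 and *EIF5A2* to 0.02. The spike-in log2 ratio of *EIF5A2* was thus above 0 in either column, though its fitted value was not called (limma voom adjusted p = 0.681). Both columns share 1 control column, and its call relative to the median gene was not repeated with single columns. Counts of calls stayed within 1.5 times of the main count, and the median log2 ratio within the spread between columns, under the other filters, pseudocounts and limma's trend on log2 values, which called 25 genes lower. No paired analysis was possible because the recovered columns carry no replicate numbers. The control has 1 different column, so its own spread, and any error in its spike-in scaling, enters each ratio and could not be measured. Depth limits *EEF1A2* most, with 65 to 81 reads.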
